A study of Homo sapiens with 9 samples.

Results

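NEAT1 and MALAT1 are neighbouring genes for long non-coding RNAs (lncRNAs) on the plus strand of chromosome 11. Their Ago-HITS-CLIP peaks were collected from both deposited lists. A peak was included when its midpoint lay in the gene body of NEAT1 or MALAT1 on the strand of the gene. This gave 12 peaks of 8460 in all. In the miR-342-3p list, 9 of 3450 peaks were on NEAT1 and 0 on MALAT1. In the miR-342-5p list, 2 of 5010 peaks were on NEAT1 and 1 on MALAT1. The genes were picked with their peaks known, so numbers of peaks, positions and scores are given as a description without a test.

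The study used 231HM cells (MDA-MB-231HM), a highly metastatic variant of a human triple negative breast cancer line, which the labels give as wild type. The cells were transfected with 20 nM of a mimic of miR-342-3p, a mimic of miR-342-5p or a negative control mimic, with 3 samples per group, and were crosslinked after 48 h. The labels do not say whether the samples of a group came from separate cultures. Each list compares 1 miR-342 mimic with the same negative control libraries and merges the replicates, so it holds no value per library, no depth and no spread between samples. Intervals on shares (95%, Wilson) therefore cover counting error only. The score of a peak is the number of reads above background in the authors' words, and no peak has a score below 5. Peak lists give no expression levels, so the cell line could not be checked against its markers.

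In Ago-HITS-CLIP, UV light crosslinks Argonaute to the RNA it holds, and the fragments that remain attached after immunoprecipitation are sequenced. Argonaute carries a miRNA whose seed, bases 2 to 8 from the 5′ end, pairs with target RNAs. NEAT1 is the scaffold of paraspeckles, nuclear bodies that retain proteins and RNAs. It has a short polyadenylated isoform and a long one that starts at the same promoter and is required for paraspeckles to form. MALAT1 is an abundant nuclear RNA that gathers in nuclear speckles, where splicing factors are stored. Both are long transcripts that are mostly unspliced, and both stay largely in the nucleus.

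The mature miR-342 strands (RefSeq, GRCh38.p14) are shown because every match below is read against them, with the seed in capitals.
miR-342-3p: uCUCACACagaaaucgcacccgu
miR-342-5p: aGGGGUGCuaucugugauuga
On a target, the 8mer site of miR-342-3p reads GTGTGAGA and that of miR-342-5p reads GCACCCCA, in the letters of the genome. A 7mer pairs with bases 2 to 8, which for miR-342-3p reads GTGTGAG and for miR-342-5p reads GCACCCC. The other kind of 7mer pairs with bases 2 to 7 and has an A after the match, TGTGAGA for miR-342-3p and CACCCCA for miR-342-5p. A 6mer pairs with bases 2 to 7, TGTGAG for miR-342-3p and CACCCC for miR-342-5p.

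The stretches of 30 nt below are from GRCh37, to which hg19 corresponds, 5′ to 3′ on the RNA strand. They are the places on NEAT1 and MALAT1 where a peak lay over a site for the transfected strand, with the site in capitals.
NEAT1, miR-342-3p 8mer, chr11:65192148-65192177: cctaaatctgtGTGTGAGAaatggcaggtc
NEAT1, miR-342-5p 7mer, chr11:65197199-65197228: tagatcttttcCACCCCAagagtacataaa
NEAT1, miR-342-5p 7mer, chr11:65205232-65205261: ctagccgacccCACCCCAtctgactgacta
MALAT1, miR-342-5p 6mer, chr11:65273023-65273052: ctgccacatcgcCACCCCgtgccttttgat
MALAT1, miR-342-5p 6mer, chr11:65273056-65273085: gcacagacccttCACCCCtcacctcgatgc

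The next stretches are from NEAT1 peaks of the miR-342-3p list without a seed site. They are shown because they match miR-342-3p from base 3 or 4 on, or lie in a GU run. Capitals mark the longest stretch of Watson-Crick pairs with miR-342-3p.
Peak with a score of 120, chr11:65190583-65190612: gggtgcgctggTCTGTGTGgaaggaggaag
Peaks with scores of 6 and 11, chr11:65203776-65203805: caaggtgacaaCTGTGTGAcccatcatctg
Peak with a score of 12, chr11:65206057-65206086: gtgctctctgTCTGTGTGAatttgcctatt
Peak with a score of 98, chr11:65196958-65196987: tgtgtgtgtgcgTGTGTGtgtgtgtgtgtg
Peak with a score of 76, chr11:65211723-65211752: tagtcctcagaCTGTGTGtgtgtgtgtgtg

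NEAT1 (ENSG00000245532) spans 65190245–65213011 on chromosome 11 of GRCh37, 22767 nt. The 9 miR-342-3p peaks on it were spread from 0.353 to 21.5 kb from the start of the gene. In order along the RNA, their scores were 120, 78, 50, 98, 6, 11, 12, 14 and 76. The scores fell into a high set of 50 or more and a low set of 14 or less, with no score between. The median was 50, beside 24 over the whole list. The peaks made up 0.261% of the list (CI 0.137–0.495%). Of 2456 genes with a miR-342-3p peak, 2 had more than 9 peaks. The miR-342-5p peaks on NEAT1 had scores of 23 and 10, beside a list median of 19. No peak lay on the strand opposite to NEAT1 in either list. The nearest peak outside the gene was 9.40 kb upstream, in the miR-342-3p list, with a score of 31, so the borders of the gene body did not decide which peaks were included.

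**Figure D1:**
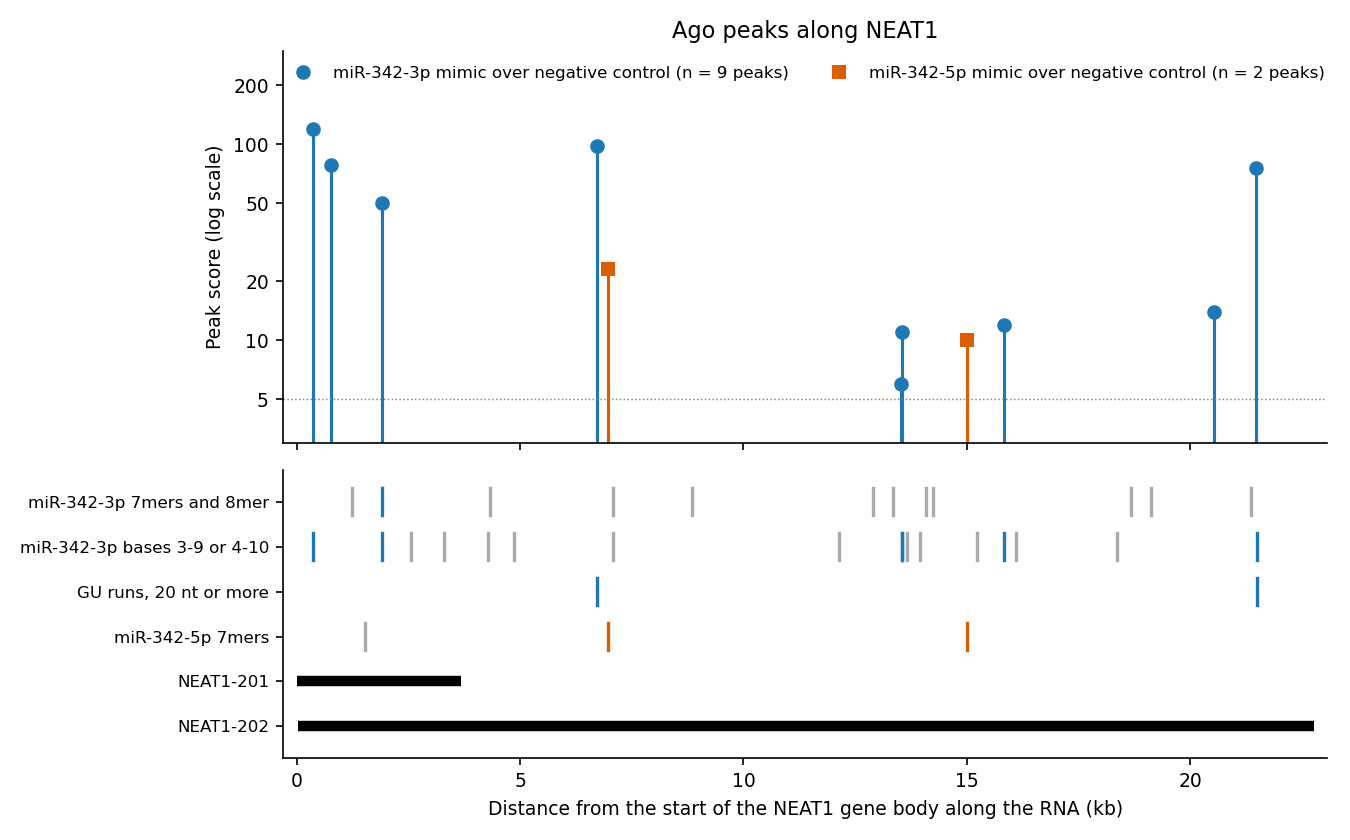
Ago peaks along NEAT1. In the upper panel, the x axis is the distance from the start of the gene body (kb), the y axis is the peak score on a log scale, and each point is the summit of a peak of the miR-342-3p (blue) or miR-342-5p list (orange); the dotted line is the minimum score of 5. In the lower panel, ticks are sites or matches, coloured when at a peak of the matching list and grey otherwise. Black bars show the extent of a short and the long isoform, with the intron of the short one not drawn. The 3 miR-342-3p peaks within the extent of the short isoform have scores of 50 to 120, and that with a score of 78 lies in its intron. Of the 12 ticks for miR-342-3p sites, 1 is coloured.

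The annotated ends of the short isoforms reach 65193984, so the first 3740 nt are common to both isoforms and the other 19027 nt belong to the long isoform alone. Reads from the common part cannot be assigned to an isoform. The common part held 3 miR-342-3p peaks (0.802 per kb), with scores of 120, 78 and 50. The part of the long isoform alone held 6 (0.315 per kb), with scores from 6 to 98 and a median of 13. Sites for miR-342-3p were about equally dense in both parts, with 0.535 and 0.526 sites of 7 or 8 nt per kb. Of these sites, 1 of 2 in the common part and 0 of 10 in the other part had a peak. The difference in peaks per kb rests on 3 and 6 peaks and was not tested. Both miR-342-5p peaks lay in the part of the long isoform alone, which has 2 of the 3 miR-342-5p sites.

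The first miR-342-3p peak on NEAT1 was at 65190522–65190608 (score 120), within the first exon of the short isoform drawn in the map. Of the miR-342-3p list, 91.1% had a lower score. The next peak, at 65190959–65191067 (score 78), has its midpoint in an intron of that transcript, but in an exon of the long isoform and of several other short ones. The peak at 65192077–65192182 (score 50) carries the 8mer. Beyond the short isoform, the peaks at 65196904–65197019 (score 98) and 65211684–65211833 (score 76) were the high ones. The remaining peaks of the long isoform, at 65203722–65203771, 65203778–65203824, 65206023–65206092 and 65210753–65210804, had scores of 6, 11, 12 and 14. The first 2 of these are separated by 6 nt, with summits 32 nt apart.

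A site of 7 or 8 nt lay within 50 nt of the summit in 1 of the 9 miR-342-3p peaks (11.1%, CI 1.99–43.5%). In the whole list this share was 20.6%, and in the 23 peaks of the list on exons of other lncRNA genes it was 30.4% (CI 15.6–50.9%). The interval of the share on NEAT1 includes both values. The 4 NEAT1 peaks with a score above 50 had no such site. Neither a miR-342-3p site on the opposite strand nor a miR-342-5p site was found in any of the 9 windows. No window had a 6mer alone.

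Along the whole of NEAT1 there were 12 sites of 7 or 8 nt for miR-342-3p. The only 8mer among them, at 65192159–65192166, had a peak over it, with the centre of the site 3.5 nt from the summit. None of the 11 7mers had one (CI up to 25.9%), and none of the 10 6mers. Together, 8.33% of the sites of 7 or 8 nt had a peak, beside 9.52% of 105 such sites in the exons of 22 other lncRNA genes with a miR-342-3p peak. Of the 8mers in those genes, 2 of 9 had a peak. The NEAT1 8mer was flanked by 58.3% A and U over 30 nt on each side, within the range of 33.3% to 66.7% at the 7mers without a peak.

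The 7mers nearest to a summit of the list are shown for comparison with the 8mer, since they had no peak although a peak lay nearby. That nearby peak has a score of 76 for the first and of 6, close to the minimum of 5, for the second.
NEAT1, 126 nt from a summit, chr11:65211590-65211619: gggagatggacGTGTGAGgagggatgatgg
NEAT1, 178 nt from a summit, chr11:65203571-65203600: caggagctcagGTGTGAGcccggctctggc
One of the other 7mers, at 65208914–65208920, lies in a stretch of 30 nt that occurs 2050 times in the genome, while those around the other NEAT1 sites occur only 1 time each. The part of this in the missing peak was not tested.

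In the windows of the 9 miR-342-3p peaks, the longest stretch of Watson-Crick pairs with the mature strand was 6 to 9 nt, with a median of 8. With their reverse complements it was 4. Over all miR-342-3p peaks the median was 6, and 5 with the reverse complements. For the miR-342-3p peaks on exons of other lncRNA genes these medians were 7 and 5. A stretch of at least 7 nt was present in 60.9% (CI 40.8–77.8%) of the 23 peaks on those exons and in 42% of the list. On NEAT1 it was present in 6 of the 9 windows (66.7%, CI 35.4–87.9%). In 5 of these 6, the pairs began at base 3 or 4 of miR-342-3p, inside the seed, and no seed site was present. The peaks with scores of 6 and 11 share 1 such stretch, so these 5 peaks stand for 4 places on the RNA. The exception was the 8mer, paired at bases 1 to 9.

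The words TGTGTGA, pairing with bases 3 to 9, and CTGTGTG, pairing with bases 4 to 10, were counted because of these stretches, after the values were seen. One or both were in 6 of the 9 windows (66.7%, CI 35.4–87.9%), beside 27.6% of all miR-342-3p peaks and 1.01% on the opposite strand of those. Of the windows around miR-342-5p peaks, 1.55% held one, as did 34.8% (CI 18.8–55.1%) of those around miR-342-3p peaks on other lncRNA exons. Without a seed site, 5 of 9 NEAT1 windows had one of these words, beside 14.5% of the list. Since the words were chosen on these peaks, the higher share on NEAT1 is not independent evidence.

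Along NEAT1, one of these words was present at 17 places, of which 6 were at a miR-342-3p peak. In the exons of other lncRNA genes with a peak this was 10 of 140 places (7.14%). Of the 6, the places 13543 and 13559 nt from the gene start are at the same neighbouring peaks, with scores of 6 and 11. The 8-nt match CTGTGTGA, which pairs with bases 3 to 10, was present 2 times in NEAT1 and was at a peak both times, beside 1 of 16 in the other genes. The peaks there had low scores, 6 and 11 at the first place and 12 at the second. The words were chosen on these peaks, so the shares of places on NEAT1 are not independent evidence either. Of the matches at peaks, the paired stretch of the highest peak (score 120) was centred 0.5 nt from the summit and that of the peak with a score of 12 was centred 1 nt from it. The peak with a score of 6 had its match 27.5 nt from the summit, outside the peak and within its neighbour with a score of 11.

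NEAT1 has 2 alternating GU runs of at least 20 nt, and both were at a miR-342-3p peak. The run of 22 nt (65196969–65196990) lies at the summit of the peak with a score of 98, which has no 7-nt match. The run of 59 nt (65211735–65211793) starts 5 nt after the summit of the peak with a score of 76. Such runs were present in 2 of 9 NEAT1 windows (22.2%, CI 6.32–54.7%), beside 6.26% of the list and 30.4% of the peaks on other lncRNA exons. The 30 nt around the summit with a score of 98 occur 535 times in the genome, and those around each of the other 11 summits on NEAT1 and MALAT1 occur 1 time. For the peak with a score of 76, these 30 nt hold only the first part of the run of 59 nt. What repeated sequence does to the scores of the peaks with 98 and 76 was not tested.

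The peaks with scores of 78 and 14 had neither a seed site, one of the words above nor a GU run of this length. Their longest paired stretches were 6 nt. In the former, it was GGTGCG, pairing with bases 15 to 20 of miR-342-3p, and in the latter CTGTGT, pairing with bases 5 to 10.

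**Figure D2:**
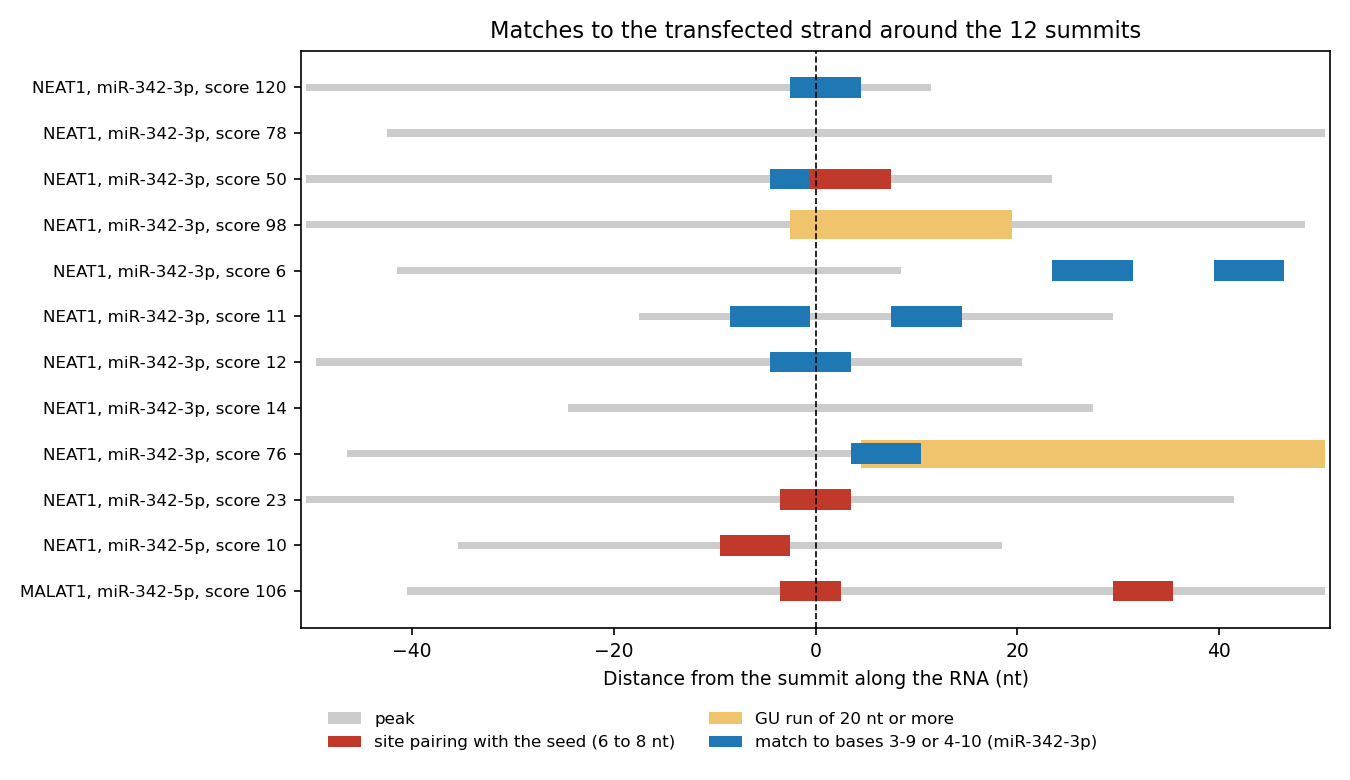
Matches to the transfected strand around the 12 summits. Each row is a peak, in order along NEAT1 and then MALAT1, with its list and score; the x axis is the distance from the summit (nt), grey bars are the extent of the peak within 50 nt, red bars are seed sites of 6 to 8 nt, blue bars are matches to bases 3 to 9 or 4 to 10 of miR-342-3p (searched in the miR-342-3p peaks only), and yellow bars are GU runs of at least 20 nt. All 3 miR-342-5p peaks have a red bar within 10 nt of the summit, as does 1 of the 9 miR-342-3p peaks.

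The miR-342-5p peaks on NEAT1 were at 65197154–65197254 (score 23) and 65205217–65205270 (score 10). Each had a 7mer of miR-342-5p, CACCCCA, at or near its summit. The centre of the site was 0 nt from the summit in the former and 6 nt from it in the latter. NEAT1 has only 3 sites of 7 nt for miR-342-5p and no 8mer, so 2 of the 3 had a peak (66.7%, CI 20.8–93.9%). In the exons of other lncRNA genes with a miR-342-5p peak, 47.8% of 46 sites had one. The NEAT1 site without a peak is the only one in the part common to both isoforms, and the only one that pairs with base 8.
NEAT1, miR-342-5p 7mer without a peak, chr11:65191752-65191781: aatgccagcagGCACCCCtcctttcctggg
The 5 6mers for miR-342-5p on NEAT1 had no peak. The site with a score of 23 was flanked by 73.3% A and U, the one with a score of 10 by 45% and the one without a peak by 48.3%.

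The lists share their negative control libraries, and their peaks on NEAT1 are therefore given side by side only. No miR-342-5p peak overlapped a miR-342-3p peak on NEAT1. The miR-342-3p peaks cover only 3.46% of NEAT1 and the miR-342-5p peaks 0.681%, so the lack of overlap does not show that the strands bind apart. The summit of the peak with a score of 23 was 242 nt downstream of that of the miR-342-3p peak at the GU run (score 98), with 134 nt between the peaks. The other miR-342-5p summit was 820 nt from the nearest miR-342-3p summit.

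MALAT1 (ENSG00000251562) spans 65265111–65275544, 10434 nt. Its single peak, in the miR-342-5p list, was at 65272998–65273094 with a score of 106 and its summit 7.93 kb from the start of the gene. Of the miR-342-5p list, 93.3% had a lower score. No miR-342-3p peak was present on MALAT1, and no peak of either list on the opposite strand, where the antisense gene TALAM1 is annotated. The nearest miR-342-3p peak outside NEAT1 and MALAT1 was 40.8 kb upstream of MALAT1, with a score of 12. Of the 66 annotated MALAT1 transcripts, 7 have an exon at the midpoint of the peak, 13 an intron, and 46 do not reach it. The single-exon transcript that covers the whole gene contains it.

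MALAT1 has no site of 7 or 8 nt for miR-342-5p and 3 6mers. The pair of 6mers shown above, 65273035–65273040 and 65273068–65273073, lay within this peak, centred 0.5 and 32.5 nt from the summit. The 6mer without a peak is at 65268930–65268935. With 6mers counted, all 3 miR-342-5p peaks on NEAT1 and MALAT1 had a match to the seed within 50 nt of the summit (CI 43.9–100%). This share was 49.2% in the list and 72% in the 25 miR-342-5p peaks on exons of other lncRNA genes. With sites of 7 or 8 nt alone, 2 of the 3 peaks had one (CI 20.8–93.9%). For these sites the share was 33.2% in the list and 64% on the other lncRNA exons. On the opposite strand of the 3 windows there was no match of 6 to 8 nt. A stretch of at least 7 nt paired with miR-342-5p was present in 2 of the 3 windows, beside 33.3% of the list and 60% on the other lncRNA exons. In the NEAT1 peak with a score of 10 it paired with bases 11 to 18, outside the seed, 17.5 nt from the summit. In the MALAT1 peak it paired with bases 1 to 7 and was centred 33 nt from the summit. A GU run of at least 20 nt was present in 0 of 3, beside 0.0604% of the list.

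For miR-342-3p, only 6mers are given on MALAT1, and the 4 of them had no peak. MALAT1 has no GU run of at least 20 nt, and 1 place with a match to bases 3 to 9 or 4 to 10 of miR-342-3p, beside 17 on NEAT1.

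**Figure D3:**
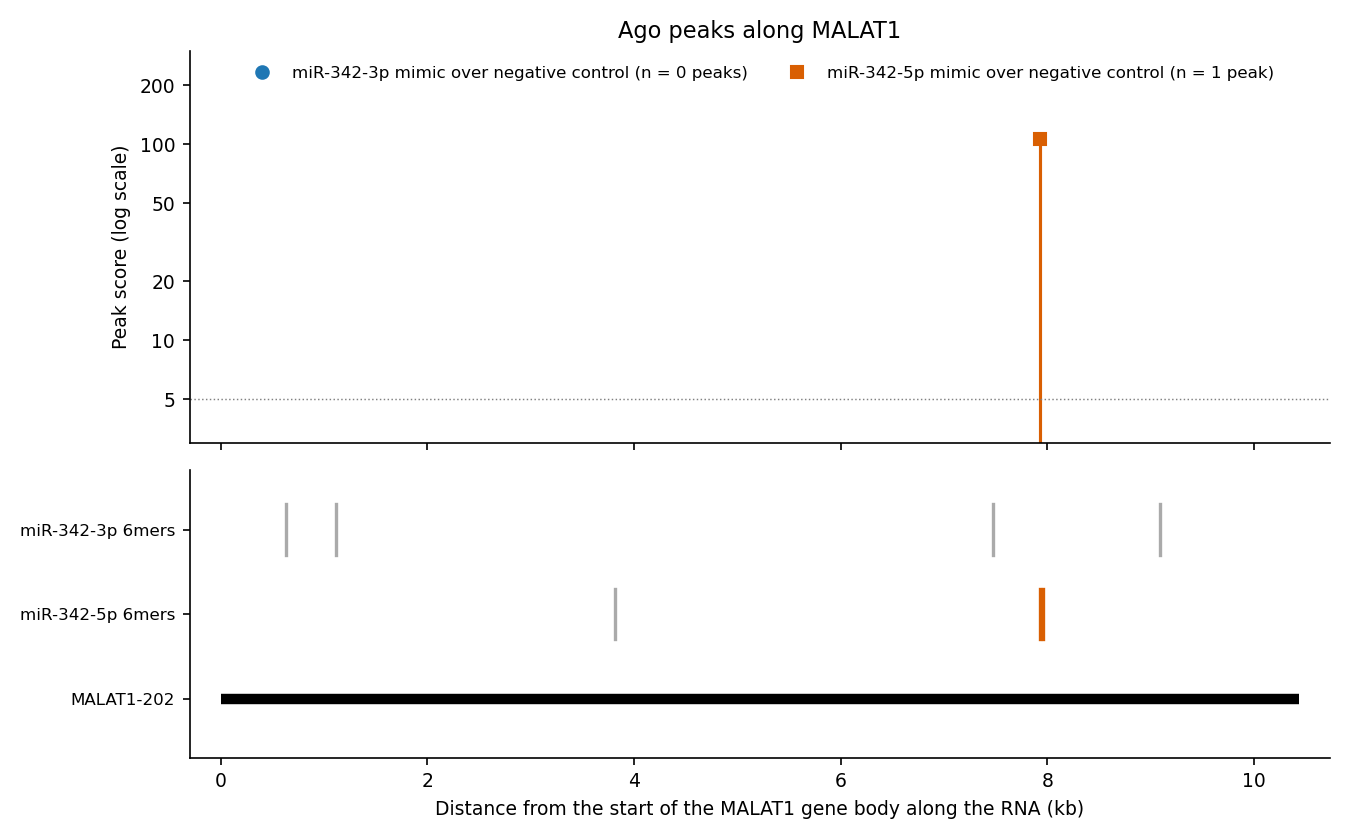
Ago peaks along MALAT1, with axes, panels and colours as in the map of NEAT1. The single miR-342-5p peak, with a score of 106, lies over a pair of 6mers, whose ticks merge at this scale; for miR-342-3p only the 4 6mers are drawn, and none has a peak.

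Other lncRNA genes were compared by the number of peaks in their exons, leaving out peaks that also lay in a protein-coding gene on the same strand. Such peaks were found on 40 lncRNA genes including NEAT1 and MALAT1, and 32 of the genes had 1 peak. NEAT1 carried 9 of the 32 miR-342-3p peaks (28.1%), and NEAT1 and MALAT1 3 of the 28 miR-342-5p peaks (10.7%). Any peak in the gene body was found for 0.353% of all annotated lncRNA genes with miR-342-3p and 0.257% with miR-342-5p.

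The genes nearest to NEAT1 by number of peaks were MHENCR, with 0 miR-342-3p and 4 miR-342-5p peaks, and SNHG17, with 1 and 2. They were followed by MIR100HG, the host gene of a miRNA cluster, with 0 and 3, ZNF436-AS1 with 0 and 2, and ENSG00000291126 with 2 and 0. The highest score among the peaks of these genes was 59, on SNHG17. The miR-342-3p peaks on these lncRNAs thus numbered at most 2 per gene. NEAT1 is also long, and per kb of exon it was not the highest. It had 0.395 miR-342-3p peaks per kb, and 9 of the 22 other lncRNA genes with a miR-342-3p peak had more, from 0.431 to 4.48 per kb. These 9 genes have 0.223 to 2.32 kb of exon, and 8 of them had a single miR-342-3p peak. Among them, ENSG00000285565 and SNHG32 overlap on the same strand, and their 1 peak, with a score of 44, is counted for both. For miR-342-5p, NEAT1 had 0.0878 peaks per kb and MHENCR 2.43. By score, 2 miR-342-3p peaks on other lncRNAs exceeded the 120 of NEAT1, and 1 miR-342-5p peak exceeded the 106 of MALAT1.

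**Figure D4:**
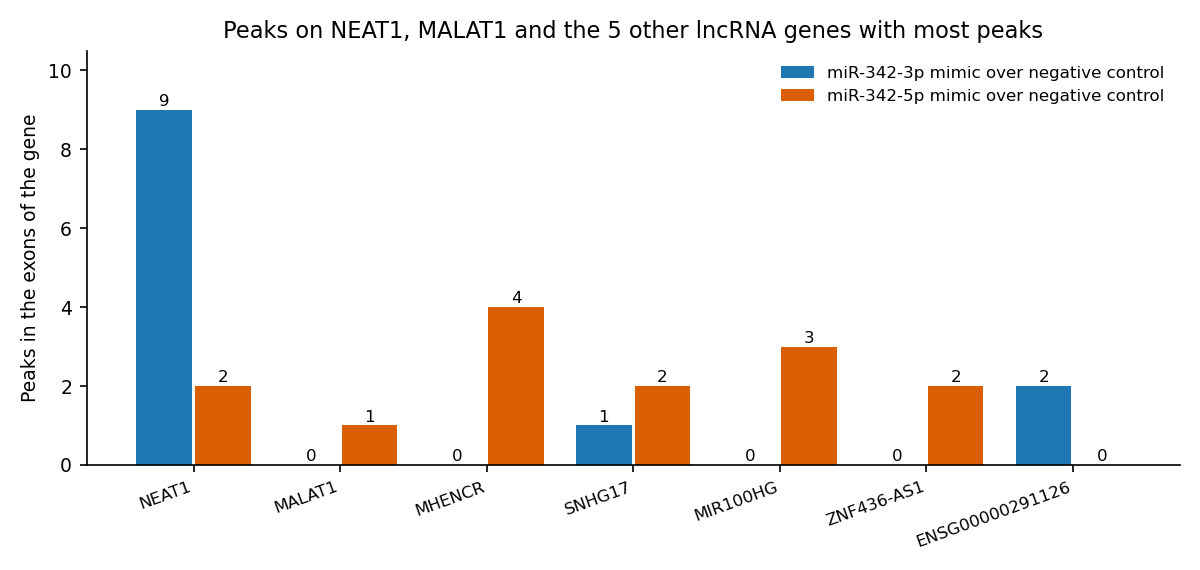
Number of peaks in the exons of NEAT1, MALAT1 and the 5 other lncRNA genes with most peaks over both lists. Bars are counts of peaks in the miR-342-3p (blue) and miR-342-5p (orange) lists, without error bars because the lists merge the replicates. NEAT1 has 9 and 2 peaks, MALAT1 0 and 1, and no other gene has more than 4 in a list.

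Among 24 other nuclear or abundant non-coding RNAs, 23 were found in the annotation. Of these, OIP5-AS1 and SNHG14 had a miR-342-3p peak, with scores of 74 and 17, and LINC-PINT had a miR-342-5p peak, with a score of 16. The other 20 had none. The peaks on OIP5-AS1 and LINC-PINT are not among the exonic lncRNA peaks compared above, while that on SNHG14 is.

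The proteins that share the nuclear bodies of these RNAs were looked up in the same lists. Of 18 genes for paraspeckle proteins, 7 had a miR-342-3p peak and 8 a miR-342-5p peak, beside 11.8% of all annotated protein-coding genes in each list. That 11.8% is not limited to genes expressed in these cells, so it is not a matched background. The genes with the highest scores were MATR3 with 153 (miR-342-3p), HNRNPK with 107 (miR-342-5p) and TARDBP with 71 (miR-342-3p), which encode RNA-binding proteins. Of the core proteins that bind NEAT1, named here for their role, SFPQ had a miR-342-5p peak with a score of 26 and PSPC1 had none. The highest peak on NONO scored 11 (miR-342-3p) and 38 (miR-342-5p). Of 20 genes for nuclear speckle proteins, 7 had a miR-342-3p peak and 9 a miR-342-5p peak. The genes with the highest scores were PRPF8, a core component of the spliceosome, with 295 (miR-342-5p) and 249 (miR-342-3p), and SON and SRRM2, both scaffolds of the speckles, with 292 and 128 (miR-342-5p). The levels of these RNAs were not measured in the lists.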

How the data were processed

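The authors made Ago-HITS-CLIP libraries from 9 samples, 3 for each of the miR-342-3p, miR-342-5p and negative control mimics (20 nM, 48 h). The submitters' processing notes name cutadapt 1.13, TopHat2 2.0.13, UMI-tools and MACS2 2.1.1.20160309, with hg19 as the genome. The authors called peaks of either miR-342 mimic against the control mimic and deposited 2 lists, with a score per peak. The scaling of the libraries is not given in the sources used here. Depth per sample is unknown, so no replicate error could be computed.

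Starts and summits were read as 0-based and are printed 1-based. Peaks were placed by midpoint and strand on GENCODE release 44 mapped to GRCh37. Sites were searched within 50 nt of the summit with Python 3.11.15, pysam 0.24.0 and samtools 1.23.1, and figures were drawn with matplotlib 3.10.9. Stretches paired with the mature strand were the longest in the window, without G:U pairs. For windows, 47 mitochondrial peaks were left out. A site was counted as having a peak when it lay in the peak or within 50 nt of its summit. Exons of all annotated transcripts were used. On MALAT1, miR-342-3p sites other than 6mers are not reported here.

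The members, lists and comparisons were chosen with earlier results of these data known. Named genes are NEAT1 and MALAT1, the 5 other lncRNA genes with most peaks (ties by score), and the 3 genes with the highest score in each gene list. No test was made, because peaks of one RNA are not replicates. The site search and pairing search, tested on simulated data, found 600 of 600 sites and 200 of 200 stretches for each strand, and 500 of 500 positions were placed on their gene. Alternatives were other score minimums, windows, site types and ways of placing peaks.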

Additional observations from a re-analysis of the deposited data

How the results depend on the processing

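The deposited lists merge the replicates, so no replicate could be left out. No paired analysis was possible because the lists carry no replicate numbers. Of 54 values under alternatives, 44 stayed within 1.5 times the number of peaks or within the interval of the share. Some of these could not move, since MALAT1 had 0 miR-342-3p peaks throughout and no miR-342-5p peak on NEAT1 or MALAT1 scores below 10. The intervals are also wide, because each share rests on few peaks or sites. With a score above 50, NEAT1 kept 4 miR-342-3p and 0 miR-342-5p peaks, and the shares of peaks with a site of 7 or 8 nt were 0% for miR-342-3p (0 of 4) and 0% for miR-342-5p (0 of 1). On the opposite strand there were 0 peaks in place of 9 and 2 on NEAT1, and 0 in place of 1 on MALAT1. Counting 8mers alone changed the share of miR-342-5p peaks with a site to 0%, and counting 6mers too changed it to 100%. Of the NEAT1 sites for miR-342-3p, 100% had a peak when 8mers alone were counted, which left 1 site. Placement by summit or by any overlap gave the same numbers of peaks. For matches to bases 3 to 9 or 4 to 10, the share of NEAT1 windows ranged from 55.6% to 71.4% over 4 alternatives that were chosen after seeing the data. Binding below the minimum score of 5 would not be detected in these lists.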
